A study of Mus musculus with 8 samples.

Results

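The genes described here encode 9 receptor chains through which hematopoietic cytokines signal: Csf3r, Csf2ra, Csf2rb, Csf2rb2, Il3ra, Il6ra, Il6st, Lifr and Osmr. They were taken by symbol from a table of 15576 genes measured by bulk RNA-seq in cells sorted as leukemic stem cells (LSCs) from a mouse model of chronic myeloid leukemia (CML), and all 9 were found. Members were picked by name, with earlier results of these data known.

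The mice were BCR-ABL×SCL-tTA double transgenics on the C57BL/6 background. In them the SCL promoter drives a tetracycline transactivator, so that BCR-ABL comes on in stem cells once tetracycline is withdrawn, and both groups carry these transgenes. In 4 libraries (CML) the mice were untreated, and in 4 libraries (CML-TKI) they had received imatinib (IM), a tyrosine kinase inhibitor (TKI) of BCR-ABL, at 400 mg/kg by gavage on alternate days for 4 weeks, or 30 days as another label has it. The paper gives a lower dose for this comparison, so the sources disagree on the dose. The comparison was made to ask what distinguishes TKI-persistent from untreated LSCs. Neither the age of the mice nor the number pooled per library is stated, and since nothing says that each library came from another animal, p-values measure the spread between these libraries only.

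A cytokine receptor of this class has no kinase of its own. When the ligand draws its chains together, JAK kinases bound to them phosphorylate one another, the receptor and STAT factors, which then enter the nucleus. A private chain gives ligand specificity, and a shared chain carries the signal: the common beta chain, encoded by Csf2rb, for GM-CSF, IL-3 and IL-5, and gp130, encoded by Il6st, for IL-6, IL-11, LIF and oncostatin M. The G-CSF receptor is a single kind of chain that pairs with itself. In the bone marrow these cytokines drive the production of granulocytes and monocytes and, for some of them, act on stem cells.

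Library totals ran from 4939645 to 8620102 counts in CML and from 1041554 to 5104272 in CML-TKI. A floor of 3 counts stood at 0.409 to 0.580 CPM (counts scaled to a common library size, here by TMM) in CML and at 0.570 to 3.29 CPM in CML-TKI, where CML-TKI 3 was the shallowest, and such floors cover counting error only. CML 1, 2 and 3 were far more alike than other pairs of libraries, with a chi-square per degree of freedom of 3.99 to 5.95 between them, against 89.96 to 94.1 between each of them and CML 5 and 27.2 to 68.9 among the CML-TKI libraries. They differed by more than counting noise, which does not show that they came from separate mice, and were kept as 3 libraries because the labels list them so, and the count of calls with the 3 summed to 1 library is given for the receptor genes and for the lists. CML-TKI 1 had the lowest summed granulocyte markers of its group and CML-TKI 3 the highest summed erythroid markers, 50424 CPM. The labels give a gate of CD150-CD48+ cells, the paper one of CD48-CD150+ cells. Slamf1, which encodes CD150, had 29.01 to 37.7 CPM in CML and 0.620 to 6.58 CPM in CML-TKI, while Cd48 had 3.86 to 6.40 and 39.9 to 178.2 CPM. Thus the CML libraries held transcripts of the gate in the paper and the CML-TKI libraries more of those of the gate in the labels, and the CML-TKI libraries went against their label of stem cells, so the groups are named here by their libraries. The summed CPM of 10 hematopoietic stem cell (HSC) markers was 1185 to 1517 in CML and 48.3 to 446.5 in CML-TKI, that of 11 granulocyte markers 163 to 267 and 1463 to 8411, and that of 8 monocyte and macrophage markers 230 to 312 and 1238 to 6358. In bulk RNA, fewer cells of a type and less RNA per cell cannot be told apart, and the part of these cell type differences in the results on the receptors was not tested.

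**Figure D1:**
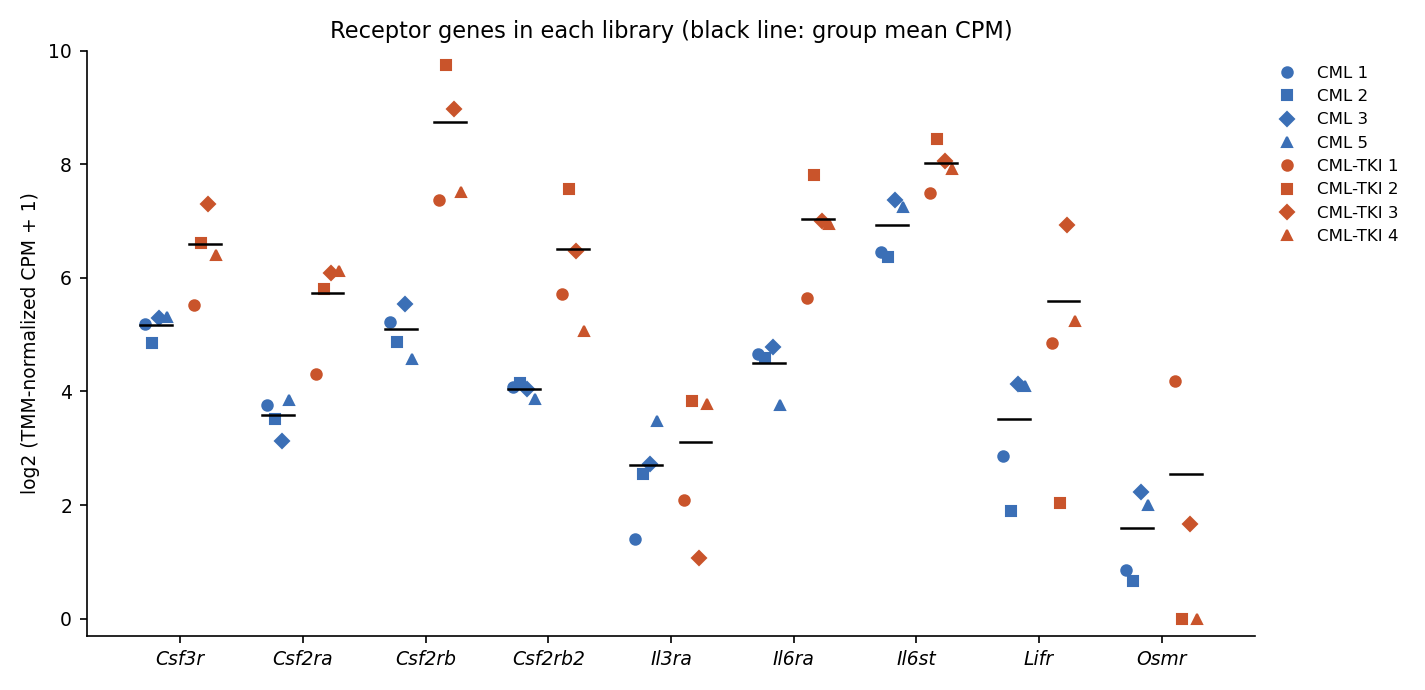
Level of each receptor gene in each of the 8 libraries, as log2 of TMM-normalized CPM plus 1, with CML in blue, CML-TKI in red and a black line at log2 of the group's mean CPM plus 1. For Csf3r, Csf2ra, Csf2rb, Csf2rb2, Il6ra and Il6st every CML-TKI library lies above every CML library, for Il3ra, Lifr and Osmr the groups overlap, and Osmr is at 0 in CML-TKI 2 and CML-TKI 4.

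Most of these receptor genes were higher in the CML-TKI libraries. Of the 9 genes, 8 had enough counts to be tested and 5 rose in CML-TKI over CML by edgeR's quasi-likelihood test with a Benjamini-Hochberg adjusted p under 0.05 over 11937 genes: Csf3r, Csf2ra, Csf2rb, Csf2rb2 and Il6ra. Of all genes tested, 6.29% rose by that rule and 10.2% changed in either direction. 0 of the 8 fell. At an unadjusted p under 0.05 it was 7 genes that were higher and 0 that were lower, and the share of all genes by that rule is not given here. DESeq2 and limma-voom each called 6 higher and 0 lower. Of all 11937 genes they called 1154 and 1249 higher, and 1003 and 1314 lower. The median log2 fold change was 2.19 over the 8 genes and -0.00020 over all genes tested. For 6 of them every CML-TKI library lay above every CML library, as did 10.3% of all genes tested. Osmr missed the filter on low counts, which needs 2.01 CPM in at least 4 libraries.

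2 features of the CML group bear on these calls. When CML 1, 2 and 3 were summed to 1 library, 0 of the genes were past the adjusted threshold of edgeR's test, although 6 were higher at an unadjusted p under 0.05 and the log2 fold changes of the 5 called genes lay between 1.35 and 3.81. Likewise, without CML 3 and CML 5 together, an alternative added after the data were seen, 0 were past it and 7 were higher at an unadjusted p under 0.05. Over all genes, 1220 were called in the main fit and 505 to 808 without 1 CML library. Without 1 CML-TKI library it was 907 to 2504, and calls lost or gained below are to be read beside these counts.

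**Figure D2:**
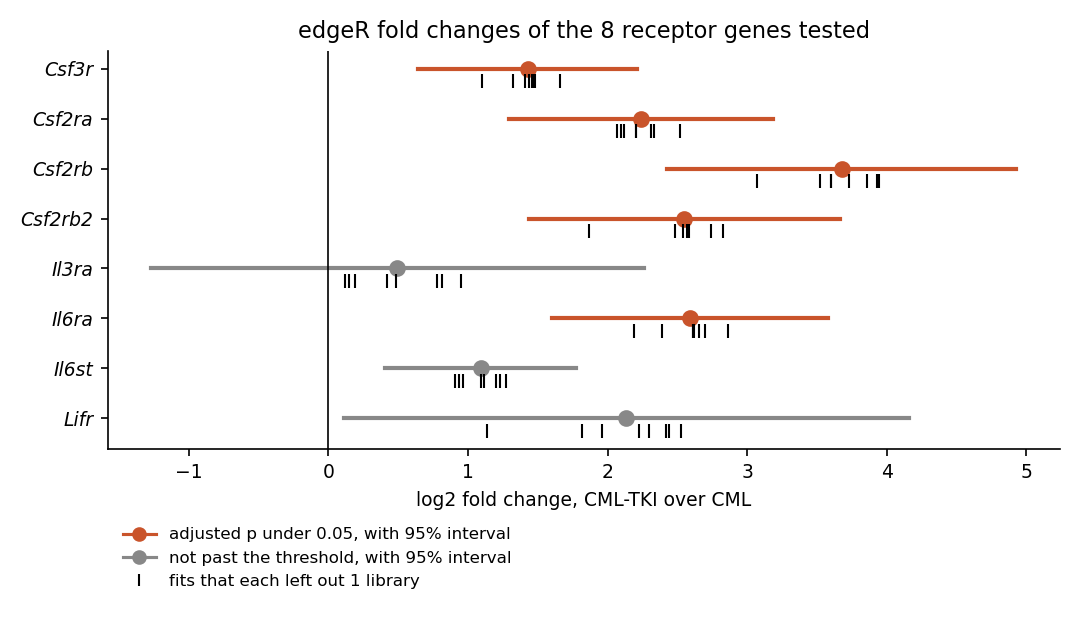
Log2 fold change (dot) with its 95% interval (line) for the 8 receptor genes tested with edgeR, in red where the adjusted p was under 0.05 and in gray otherwise, with a black tick for each of the 8 fits that left out 1 library. The intervals of Csf3r, Csf2ra, Csf2rb, Csf2rb2, Il6ra, Il6st and Lifr lie above 0, that of Il3ra crosses it, and every tick lies above 0.

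The common beta chain showed the largest fold change of the 8. Csf2rb and Csf2rb2 lie side by side on chromosome 15 of GRCm38.p6, from 78325800 to 78351001 and from 78282507 to 78305721, and arose by duplication in rodents. Csf2rb encodes the chain shared by the receptors for GM-CSF, IL-3 and IL-5, and Csf2rb2 a chain for IL-3 only. Their coding sequences, read from GENCODE M21 transcripts, were 2688 and 2634 bases long and identical at 95.2% of the 2628 bases that aligned without a gap, with the longest identical run at 242 bases. 26.03% of all windows of 50 bases of the Csf2rb coding sequence, and 11.0% of those of 100 bases, also occurred in Csf2rb2. A read from such a window cannot be given to one gene. The first pair of sequences below is a stretch of 90 bases without a difference, and the second the stretch of 90 aligned bases with the most differences, 16, which are in capitals. They show where reads could and could not tell the genes apart, and are written 5′ to 3′ along each gene in GRCm38. The first lies at chr15:78341658-78341747 on the plus strand in exon 9 of Csf2rb and at chr15:78291563-78291652 on the minus strand in exon 8 of Csf2rb2. The second lies at chr15:78338897-78338986 in exon 5 and at chr15:78294345-78294434 in exon 4.
Csf2rb, exon 9: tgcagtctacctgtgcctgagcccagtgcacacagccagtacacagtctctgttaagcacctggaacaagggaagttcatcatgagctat
Csf2rb2, exon 8: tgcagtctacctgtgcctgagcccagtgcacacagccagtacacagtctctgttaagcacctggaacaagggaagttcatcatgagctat
Csf2rb, exon 5: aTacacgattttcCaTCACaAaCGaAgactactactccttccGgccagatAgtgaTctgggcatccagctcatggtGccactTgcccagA
Csf2rb2, exon 4: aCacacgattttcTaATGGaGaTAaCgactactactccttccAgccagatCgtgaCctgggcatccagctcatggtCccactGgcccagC

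Csf2rb had 36.5, 28.4, 45.6 and 22.8 CPM in CML 1, 2, 3 and 5, and 163.9, 859.7, 503.05 and 181.1 CPM in CML-TKI 1, 2, 3 and 4. Every CML-TKI library was above every CML library, and CML-TKI 2 was the highest. The mean was 33.3 ± 9.93 CPM (SD, n = 4) in CML and 427 ± 328 CPM (SD, n = 4) in CML-TKI, a log2 fold change of 3.68 (standard error 0.56) or 12.8-fold (95% interval 5.37 to 30.5), with an adjusted p of 0.00369 from edgeR. Without CML-TKI 2 the log2 fold change was 3.07 (adjusted p = 0.00599). CML-TKI 2 also had the highest summed monocyte and macrophage markers, 6358 CPM, and CML-TKI 1, with the lowest Csf2rb of its group, had the lowest of these sums, 1238 CPM.

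Csf2rb2 had 15.8, 16.8, 15.5 and 13.6 CPM in CML 1, 2, 3 and 5, and 51.9, 189.3, 87.7 and 32.5 CPM in CML-TKI 1, 2, 3 and 4. The CML libraries were close together and all below the CML-TKI libraries, which spread widely. It rose by 2.55 on the log2 scale (standard error 0.50), from 15.4 ± 1.33 to 90.3 ± 69.8 CPM (SD, n = 4 in each group), with an adjusted p of 0.0118 from edgeR, and without CML-TKI 2 by 1.87 (adjusted p = 0.0172). Among the receptor genes, only Csf2rb and Csf2rb2 had fractional deposited counts in all 8 libraries. This occurs when a read is divided between copies, so the separate values of the pair are uncertain. Csf3r and Il6ra had 1 fractional value each, and over all genes 8.32% to 22.1% of the values of a library were fractional. Summed to 1 row, which no division of reads can move, the pair had 48.7 ± 10.5 CPM in CML and 517.3 ± 396.3 CPM in CML-TKI (SD, n = 4 in each group), which is 3.41 higher on the log2 scale with a standard error of 0.53 (adjusted p = 0.00414 from edgeR).

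Of the private chains that pair with the beta chain, Csf2ra passed the threshold and Il3ra did not, and the difference between them was not tested. Csf2ra, the GM-CSF-binding alpha chain on chromosome 19 (61217191 to 61228461), had 12.5, 10.4, 7.73 and 13.3 CPM in CML 1, 2, 3 and 5, and 18.8, 55.2, 66.9 and 68.7 CPM in CML-TKI 1, 2, 3 and 4. CML-TKI 1 was the lowest of its group but above all CML libraries. This was a rise of 2.24 on the log2 scale (standard error 0.42), from 11.0 ± 2.50 to 52.4 ± 23.2 CPM (SD, n = 4 in each group), with an adjusted p of 0.0105 from edgeR. Il3ra, the IL-3-binding alpha chain on chromosome 14 (14345912 to 14355493), had 1.63, 4.83, 5.60 and 10.2 CPM in CML 1, 2, 3 and 5, and 3.23, 13.3, 1.10 and 12.7 CPM in CML-TKI 1, 2, 3 and 4. The groups overlapped, and both the lowest and the highest value were CML-TKI libraries. The log2 fold change of 0.49 had a 95% interval of -1.27 to 2.26 (adjusted p = 0.747 from edgeR), or 0.414-fold to 4.78-fold. CML-TKI 3 held 1 count of Il3ra, below the floor. Basophils and eosinophils carry the IL-3 receptor. The summed CPM of 6 basophil and mast cell markers ran from 4.49 to 6.76 in CML and from 43.8 to 1234 in CML-TKI, and that of 4 eosinophil markers from 4.05 to 35.6 and from 43.8 to 2587. CML-TKI 3 was the lowest of its group in both, with Prss34, Ms4a2, Fcer1a, Prg2 and Epx at 0, but it held 39.5 CPM of Hdc and 21.9 CPM each of Siglecf and Ccr3, all above the CML libraries. The eosinophil granule gene Prg2 had 380.8, 770.4 and 1398 CPM and the basophil protease gene Prss34 77.9, 61.7 and 840.4 CPM in CML-TKI 1, 2 and 4. The part of these cells in the Il3ra values was not tested.

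The alpha chain for IL-5, Il5ra, which shares the same beta chain, was also higher. It had 0, 0, 1 and 0 counts in CML 1, 2, 3 and 5 and 23, 20, 4 and 61 counts in CML-TKI 1, 2, 3 and 4. All CML libraries were under the floor of 3 counts. Against the highest floor of a CML library, 0.580 CPM, the CML-TKI mean of 7.71 ± 5.51 CPM (SD, n = 4) was at least 13.3-fold higher (adjusted p = 0.00435 from edgeR). CML-TKI 4 weighed most in that mean, and without it the bound was 8.60-fold. With its CML libraries this low, Il5ra could be tested only if all CML-TKI libraries passed the filter on low counts. That the groups did not overlap was thus set by the filter, and the adjusted p is no separate support.

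Csf3r encodes the receptor for G-CSF, the main cytokine of neutrophil production, on chromosome 4 (126023441 to 126044975). It had 35.7, 27.8, 38.1 and 38.8 CPM in CML 1, 2, 3 and 5, and 44.8, 96.7, 156.7 and 83.3 CPM in CML-TKI 1, 2, 3 and 4. CML-TKI 1 lay just above the CML libraries and CML-TKI 3 was the highest. The log2 fold change was 1.43 (standard error 0.35) or 2.69-fold (95% interval 1.56 to 4.63), with an adjusted p of 0.0304 from edgeR. This call rested on the whole set of libraries: without CML 1, 2, 3 or 5 or CML-TKI 2, 3 or 4 in turn the adjusted p was 0.0502 to 0.102, and without CML-TKI 1 it was 0.00322. CML-TKI 3 was also the library with the most of 7 of the 11 granulocyte markers, among them S100a8, Ltf and Camp at 865.8, 386.9 and 145.8 CPM, but not of Elane, Mpo, Prtn3 and Ctsg. CML-TKI 1 was above every CML library for 7 of the 11, among them Mpo at 695 CPM and Elane at 220.5 CPM, within the range of CML for 3 (S100a8, Camp and Ngp) and below it for Ltf. The part of granulocytes in the Csf3r values was not tested.

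Of the 4 listed receptor genes that signal through gp130, Il6ra, Il6st, Lifr and Osmr, the IL-6-binding chain passed the threshold. Il6ra, on chromosome 3 (89869324 to 89913196), had 24.4, 23.0, 26.7 and 12.5 CPM in CML 1, 2, 3 and 5, and 49.0, 222.5, 127.1 and 122.0 CPM in CML-TKI 1, 2, 3 and 4. All CML-TKI libraries were above all CML libraries, with CML-TKI 1 again the lowest of its group. The log2 fold change was 2.59 (standard error 0.44) or 6.01-fold (95% interval 3.03 to 11.9), from 21.6 ± 6.27 to 130 ± 71.2 CPM (SD, n = 4 in each group), with an adjusted p of 0.00654 from edgeR. An antisense gene of the annotation, Gm42809, overlaps the start of Il6ra, and no source says that strand was used in counting.

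Il6st, the gene of gp130 itself on chromosome 13 (112464070 to 112506860), had 87.3, 81.3, 165.6 and 150.7 CPM in CML 1, 2, 3 and 5, and 179.9, 346.8, 264.1 and 241.7 CPM in CML-TKI 1, 2, 3 and 4. The groups did not overlap, but CML 3 and 5 came close to CML-TKI 1. The log2 fold change was 1.09 (standard error 0.31, 95% interval 0.41 to 1.77) and did not pass the threshold of edgeR (adjusted p = 0.0505). It passed by DESeq2 (adjusted p = 0.00972), by limma-voom (adjusted p = 0.0372), with a minimum count of 30 in edgeR (adjusted p = 0.0468) and without CML-TKI 1 (adjusted p = 0.0190), and over the fits without 1 library the adjusted p reached 0.154.

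Lifr, the receptor chain for LIF on chromosome 15 (7090610 to 7197489), had 6.26, 2.70, 16.6 and 16.1 CPM in CML 1, 2, 3 and 5, and 27.9, 3.10, 120.6 and 36.9 CPM in CML-TKI 1, 2, 3 and 4. CML-TKI 2 fell among the CML libraries and CML-TKI 3 stood highest. The log2 fold change of 2.13 (standard error 0.91, 95% interval 0.11 to 4.16) did not pass the threshold of edgeR (adjusted p = 0.172), nor did it in any alternative, and it was 1.13 without CML-TKI 3. Osmr, the oncostatin M receptor chain on chromosome 15 (6813568 to 6874968), was low, with 6, 3, 19 and 22 counts in CML 1, 2, 3 and 5 and 90, 0, 2 and 0 counts in CML-TKI 1, 2, 3 and 4. The zeros allow up to 0.930 and 0.781 CPM in CML-TKI 2 and 4, and 17.1 CPM in CML-TKI 1 stood alone. Where an alternative let Osmr pass the filter its adjusted p was 0.0630 to 0.908, and it was lower in CML-TKI, with an unadjusted p of 0.0182 in edgeR, in the fit without CML-TKI 1 and 3, which leaves 2 CML-TKI libraries at 0.

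Il6st, Lifr and Osmr were all higher in CML 3 and 5 than in CML 1 and 2. The sum of 6 endothelial and stromal markers, from cell types that use these receptors, followed the same division, with 73.1, 35.1, 664 and 299 CPM in CML 1, 2, 3 and 5. It was not alone in this, as the sums of granulocyte markers (194, 163, 250 and 267 CPM), monocyte and macrophage markers (246, 230, 309 and 312 CPM) and eosinophil markers (12.0, 4.05, 31.1 and 35.6 CPM) were also higher in CML 3 and 5. In CML-TKI 1, 2, 3 and 4 it was 60.4, 1.55, 208 and 7.03 CPM, and CML-TKI 3, with the highest sum of its group, had the most Lifr. Among the CML-TKI libraries Il6st was highest in CML-TKI 2, where the sum was lowest, and Osmr in CML-TKI 1. Col1a1, a collagen gene, made up 395.7 CPM of the sum in CML 3. CML 3 and 5 held the most Il6st and Lifr of their group and CML-TKI 3 the most Lifr, so that leaving them out moves the fold changes in a direction fixed by that choice, and the following values are a description and no test. Without CML 3 and 5 the log2 fold change of Il6st was 1.61 (adjusted p = 0.0742 from edgeR) and that of Lifr 3.33 (adjusted p = 0.310), and without CML-TKI 1 and 3 they were 1.28 (adjusted p = 0.0280) and 0.95 (adjusted p = 0.491). The part of such cells was not tested.

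**Figure D3:**
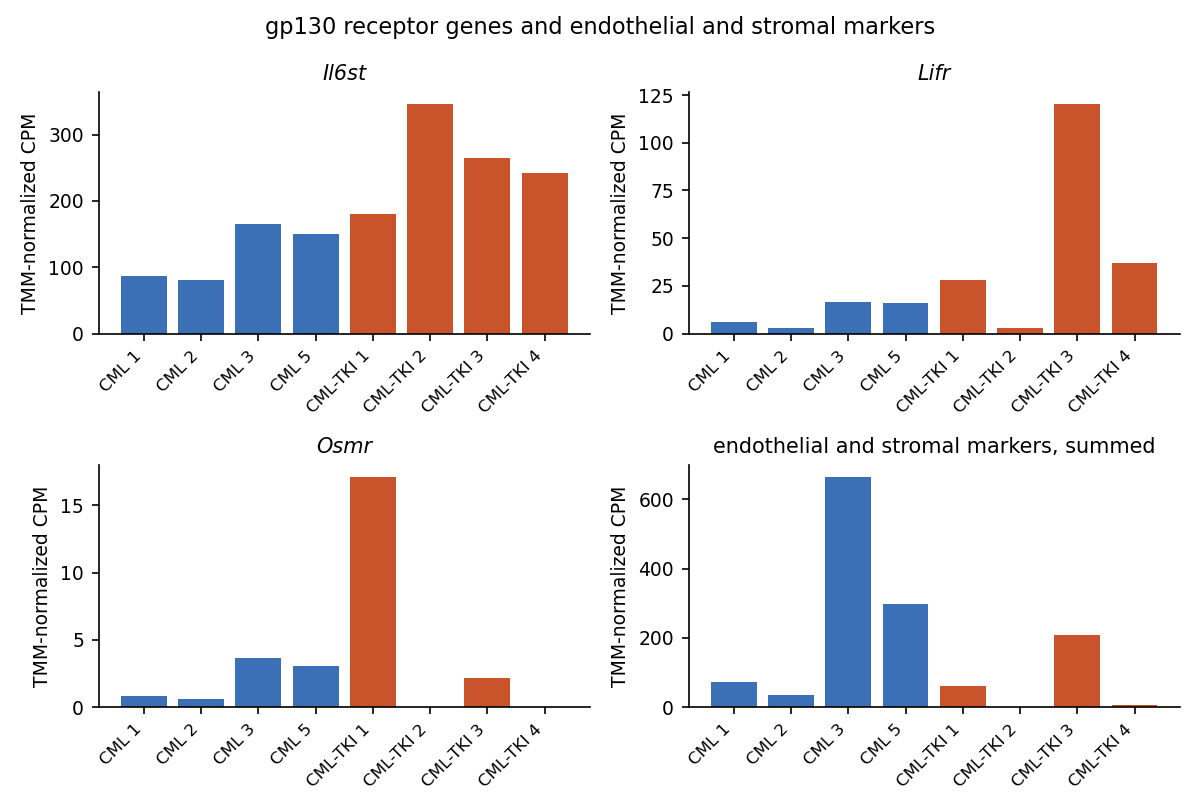
Bars give TMM-normalized CPM of Il6st, Lifr, Osmr and the sum of 6 endothelial and stromal markers in each library, with CML in blue and CML-TKI in red and each axis starting at 0. In all 4 panels CML 3 and CML 5 exceed CML 1 and CML 2, and the marker sum runs from 1.55 CPM in CML-TKI 2 to 664 CPM in CML 3.

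Ratios within a library do not depend on the scaling of that library, apart from the prior count, which weighs where counts are low, as for Osmr. They were computed as log2 ratios of CPM for 7 pairs, most of them chains of a common receptor complex. Csf2rb2 and Csf2rb are instead alternative beta chains, and Csf3r and Csf2rb share no complex. The ratios were compared between the groups by exact permutation, two-sided, of the library labels. The 70 relabelings cannot give a p below 0.0286, and p-values were adjusted over the 7 ratios. Csf2rb2 relative to Csf2rb was -1.19, -0.74, -1.54 and -0.73 in CML 1, 2, 3 and 5, and -1.65, -2.18, -2.51 and -2.46 in CML-TKI 1, 2, 3 and 4. The CML-TKI ratios were all lower, by 1.15 on average (exact permutation p = 0.0286, adjusted p = 0.1). Thus the share of the IL-3-only copy in the pair was smaller in each CML-TKI library, as far as reads can separate the copies.

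Csf3r relative to Csf2rb was also lower in every CML-TKI library, with a difference of -2.06 (exact permutation p = 0.0286, adjusted p = 0.1). In the CML libraries this ratio lay between -0.26 and 0.75, and in the CML-TKI libraries between -3.15 and -1.12. CPM of both genes were alike in CML 1, 2 and 3, while CML 5, with 0.75, held more Csf3r. The other ratios to Csf2rb overlapped between the groups, with a difference of -1.29 for Csf2ra (exact permutation p = 0.114, adjusted p = 0.16) and -3.23 for Il3ra (exact permutation p = 0.0571, adjusted p = 0.133), which was -2.41 without CML-TKI 3 and -3.94 without CML-TKI 4. For gp130 the difference was 1.31 for Il6ra over Il6st (exact permutation p = 0.0857, adjusted p = 0.15), where CML-TKI 1 lay among the CML libraries and the other CML-TKI libraries above them. Lifr over Il6st differed by 0.45 (exact permutation p = 0.743, adjusted p = 0.743), by -0.27 without CML-TKI 3 and by 1.56 without CML-TKI 2, and Osmr over Il6st by -1.40 (exact permutation p = 0.314, adjusted p = 0.367). With Osmr at 0 in 2 of the 4 CML-TKI libraries this last difference varied widely, and was -2.69 without CML-TKI 1, -0.58 without CML-TKI 2, -0.75 without CML-TKI 4 and -2.15 with a prior count of 0.5. 0 of the 7 ratios passed an adjusted p under 0.05, and 2 had an unadjusted p under 0.05.

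**Figure D4:**
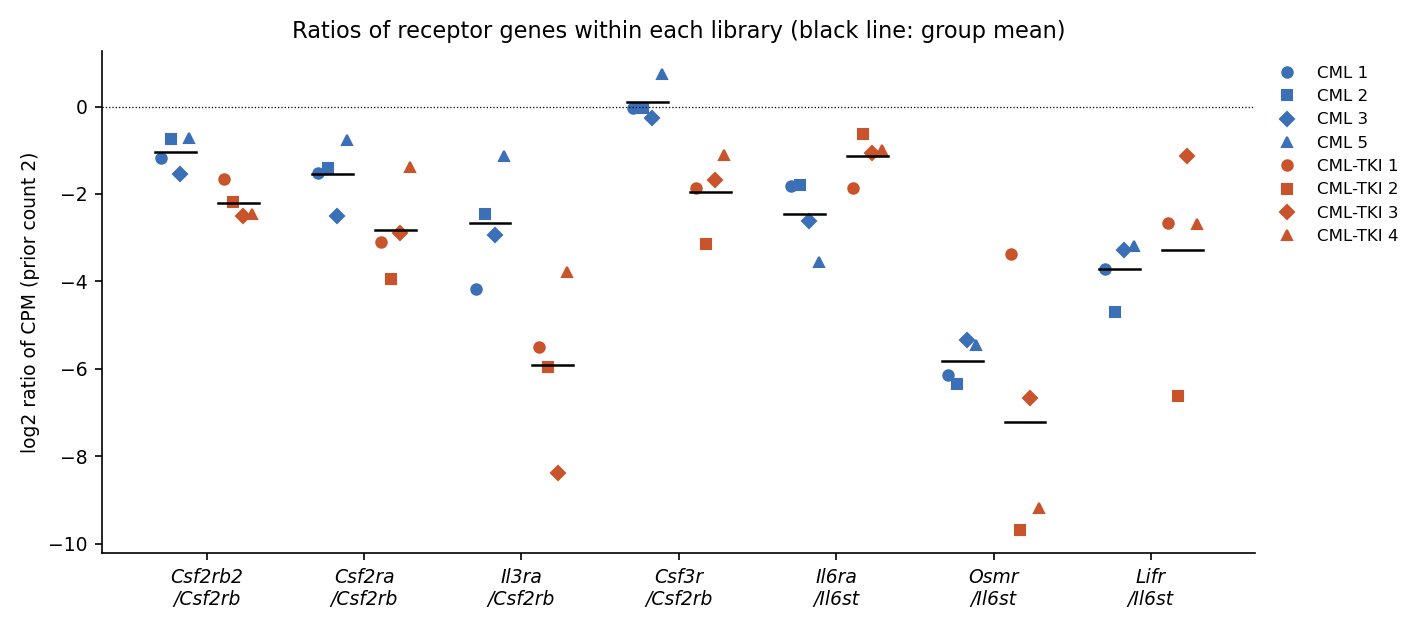
Log2 ratio of CPM (prior count 2) of each pair of receptor genes in each library, with CML in blue, CML-TKI in red and a black line at the group mean. The CML-TKI ratios of Csf2rb2 to Csf2rb and of Csf3r to Csf2rb lie below those of CML in every library, and the other 5 ratios overlap.

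Per length of the longest annotated transcript, the order of the receptor genes differed between the groups. In CML Il6st came first with 14.0 ± 4.97 CPM per kilobase (SD, n = 4), then Csf3r with 10.1 ± 1.45, Csf2rb with 6.80 ± 2.03 and Csf2ra with 5.95 ± 1.35. Il3ra followed with 3.44 ± 2.18 CPM per kilobase, then Csf2rb2 with 3.25 ± 0.28, Il6ra with 2.50 ± 0.73, Lifr with 1.08 ± 0.73 and Osmr with 0.37 ± 0.28. In CML-TKI Csf2rb came first with 87.1 ± 66.9 CPM per kilobase (SD, n = 4), then Il6st with 29.7 ± 7.95, Csf2ra with 28.3 ± 12.5 and Csf3r with 27.4 ± 13.3. Csf2rb2 had 19.1 ± 14.7 CPM per kilobase, Il6ra 15.1 ± 8.24, Lifr 4.88 ± 5.28, Il3ra 4.71 ± 3.93 and Osmr 0.88 ± 1.50. No neighbors in either order were apart by more than their SDs. The order depends on the transcript: Il6ra has annotated transcripts of 8639 and 3343 bases, and with the shortest transcript of every gene it rose from place 7 to 4 in CML and from 6 to 2 in CML-TKI.

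Over the 8 libraries the log2 CPM of Csf2rb ran closest to Csf2rb2 and Il6ra, with a Pearson r of 0.97 and 0.96, as a description over libraries that share the group difference. Il3ra stood apart, with r of -0.35 to 0.33 with the other 7 tested genes. Among the 9313 genes whose log2 CPM averaged 3 or more, the genes most like Csf2rb were Lamp1, a lysosomal membrane protein, Emilin2 and Milr1 (r of 0.99, 0.99 and 0.98). Those most like Csf2rb2 were Mboat1, Ctsc, the protease that activates granule serine proteases, and Tmed7 (r of 0.99 each). For Csf3r they were Lcn2, a neutrophil granule protein, Slc8b1 and Gstm1 (r of 0.99 each), and for Csf2ra Themis2, Nrf1 and Hvcn1, the proton channel of phagocytes (r of 0.99 each). Pdia3, Abcd2 and Agps were most like Il6ra (r of 0.99 each), and Mgst1, Zfp513 and Itga1 most like Il6st (r of 0.97, 0.96 and 0.95). For Lifr they were Ets1, Mipep and Ano10 (r of 0.96, 0.93 and 0.93), and for Il3ra, among 9314 genes, Xrcc1, Tbc1d22b and Ube2t (r of 0.94, 0.94 and 0.92).

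The regions before annotated transcript starts of the receptor genes were searched for 3 motifs of factors known to act on myeloid or cytokine-driven genes, which were chosen with the sequences and earlier results in view. RefSeq promoter sequences of GRCm38.p6, with 250 bases before each start searched on both strands, were at hand for 8 of the genes (9 entries). Csf2rb had no entry and was not searched. GAGGAA, the core bound by PU.1, occurred in 5 of the 9 entries and in 23.3% of 32851 entries of all genes. TTCNNNGAA, bound by STAT factors, occurred in 1 of 9 and in 7.02%, and TTGCNNAA, bound by C/EBP factors, in 1 of 9 and in 9.56%. Matches are given for the called genes other than Csf2rb, with the match in capitals, to show where it lies. A match is a description of letters, not a site. The start of an entry can lie inside the bounds of the gene given above, which reach to the outermost transcript, as it does for Csf3r, Il3ra, Osmr and Lifr and in part for Csf2ra. Csf2rb2 (chr15:78305722-78305971, minus strand) holds the PU.1 core on the opposite strand 167 bases before the start and the STAT motif 15 bases before it. Il6ra (chr3:89913197-89913446, minus strand) holds the core on the opposite strand 70 bases before the start. Csf3r (chr4:126024561-126024590, plus strand) holds it 86 bases before the start, and Csf2ra (chr19:61228419-61228448, minus strand) 14 and 8 bases before it, and of these a stretch of 30 bases is given.
Csf2rb2: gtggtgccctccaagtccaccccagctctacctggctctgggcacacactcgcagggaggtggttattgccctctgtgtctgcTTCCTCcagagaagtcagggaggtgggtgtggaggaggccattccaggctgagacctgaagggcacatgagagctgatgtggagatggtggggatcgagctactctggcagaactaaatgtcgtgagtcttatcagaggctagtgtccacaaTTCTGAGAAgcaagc
Il6ra: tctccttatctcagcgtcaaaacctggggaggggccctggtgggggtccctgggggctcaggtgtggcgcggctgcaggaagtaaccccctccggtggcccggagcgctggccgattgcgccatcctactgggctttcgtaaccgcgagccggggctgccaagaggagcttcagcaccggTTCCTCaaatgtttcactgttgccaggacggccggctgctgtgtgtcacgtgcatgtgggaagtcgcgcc
Csf3r: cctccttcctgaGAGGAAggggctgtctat
Csf2ra: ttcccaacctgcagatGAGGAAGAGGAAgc
Outside the called genes, Osmr held GAGGAA 240 bases and Il3ra TTGCNNAA 134 bases before the start, and Il6st and Lifr held none of the 3 motifs.

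Of 9 listed transcription factors that act on myeloid receptor genes, 6 rose and 1 fell, with a median log2 fold change of 2.79. Of all genes tested, 6.29% rose and 3.93% fell. Irf8, a factor of monocyte and dendritic cell development, rose from 6.37 ± 2.596 to 247.7 ± 126.4 CPM (SD, n = 4 in each group; log2 fold change 5.26, adjusted p = 8.70e-04 from edgeR). Cebpe, which acts late in granulocyte development, Cebpa, which acts early in it, and Gfi1 rose by 4.61, 3.83 and 3.47 on the log2 scale (adjusted p = 0.0164, 0.00264 and 0.00435 from edgeR). Cebpb rose by 2.79 and Spi1, which encodes PU.1, by 1.83 (adjusted p = 0.0110 and 0.0156). Gata2, a factor of stem cells and of the mast cell lineage, fell by 2.32 (adjusted p = 0.00418). The calls of Cebpe and Spi1 were lost without CML 1, CML 2 or CML 3, with adjusted p up to 0.0571 and 0.0621. Cebpe had 1 count in each of CML 1, 2 and 3, under the floor, and 21 in CML 5. With all libraries Cebpe was 24.5-fold higher in CML-TKI. Without CML 5 its call was kept (adjusted p = 0.00599 from edgeR). Against the highest floor of CML 1, 2 and 3 alone, its CML-TKI mean was at least 38.4-fold higher. CML 5 held the most Cebpe of its group, so leaving it out raises the fold change by that choice. The call and the bound without CML 5 are thus a description and no separate support.

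Few ligand genes passed the filter on low counts. Of 16 ligand genes listed for these receptors and their kin, 10 were in the table and 4 were tested. Osm, the gene of oncostatin M, was called by edgeR, with 5.11 ± 1.63 CPM in CML and 27.3 ± 27.4 CPM in CML-TKI (SD, n = 4 in each group; log2 fold change 2.36, adjusted p = 0.0479). CML-TKI 3 held 67.95 CPM of it, against 10.4 to 18.99 CPM in the other CML-TKI libraries. Its call held in 2 of the 8 fits without 1 library and was lost without any 1 of the CML libraries, CML-TKI 3 or CML-TKI 4, with an adjusted p up to 0.137, and without CML-TKI 3 its log2 fold change was 1.43. Ctf1, the gene of cardiotrophin 1, and Ebi3, a subunit gene of IL-27, were lower at an unadjusted p under 0.05 and by DESeq2, and limma-voom called 1 gene lower. Ctf1 had 6.78 ± 2.71 CPM in CML and 0.605 ± 0.897 CPM in CML-TKI, and Ebi3 10.7 ± 0.534 and 4.01 ± 1.71 CPM (SD, n = 4 in each group; adjusted p = 0.0658 and 0.0826 from edgeR). Ctf1 was called without CML-TKI 1 (adjusted p = 0.0105 from edgeR) and Ebi3 without CML-TKI 3 (adjusted p = 0.0306 from edgeR). In each case that was the CML-TKI library with the most of the gene, so these calls are a description only. Lif was too low to be tested with all libraries, with 14, 2, 1 and 9 counts in CML 1, 2, 3 and 5 and 20, 47, 39 and 1 counts in CML-TKI 1, 2, 3 and 4. It was called higher without CML-TKI 4 (adjusted p = 0.0335 from edgeR). CML-TKI 4 held the least Lif of its group, so leaving it out raises the fold change by that choice, and the call is no separate support. Without CML 1, 2, 3 or 5 in turn, 5 ligand genes were tested and 0 called.

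Other receptors of the class went both ways. Of the 3 other gp130 family receptors tested, Il11ra1, the IL-11-binding chain, fell from 45.3 ± 14.6 to 11.9 ± 2.92 CPM (SD, n = 4 in each group; log2 fold change -1.90, adjusted p = 0.00674 from edgeR) and 0 rose. At an unadjusted p under 0.05, and also by DESeq2 and by limma-voom, 2 were lower and 0 higher. Of 12 other type I receptors, 1 rose and 3 fell, with a median log2 fold change of -1.19, while 6.29% of all genes tested rose and 3.93% fell. At an unadjusted p under 0.05 in edgeR 2 were higher and 5 lower, by DESeq2 2 and 4, and by limma-voom 1 and 4. Il13ra1, a chain for IL-13, rose by 3.69 (adjusted p = 0.0490 from edgeR), with 1.56 to 75.6 CPM in CML-TKI, so that the groups overlapped, and its call held in 2 of the 8 fits without 1 library, with a log2 fold change of 2.84 without CML-TKI 3. Il12rb1 and Il12rb2, the chains for IL-12, and Crlf2, the TSLP receptor, fell by 2.32, 1.75 and 1.37 (adjusted p = 0.0183, 0.0239 and 0.0271 from edgeR). Each of these 3 lost its call without CML 1, 2 or 3, and Il12rb1 and Crlf2 also without CML 5, with adjusted p up to 0.116, so that 0 genes of this list were called without CML 1, 2 or 3 and 1 without CML 5.

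Of 6 type II receptors, 3 rose and 0 fell by edgeR, beside 6.29% of all genes tested that rose and 3.93% that fell. At an unadjusted p under 0.05 edgeR had 5 higher and 0 lower, and DESeq2 and limma-voom each called 4 higher and 0 lower. Il10ra, the IL-10-binding chain, rose from 1.65 ± 1.24 to 50.1 ± 34.7 CPM (SD, n = 4 in each group; log2 fold change 4.89, adjusted p = 0.00371 from edgeR). Ifngr1 and Ifngr2, both chains for interferon gamma, rose by 1.69 and 2.02 (adjusted p = 0.0125 and 0.00654), and Ifngr1 lost its call without CML 1 or CML 3 (adjusted p up to 0.0503). Without CML-TKI 1 the list had 5 genes higher and 0 lower. Of 7 receptors of the interleukin 1 family, Il1rl1, the IL-33 receptor, rose by 3.72 (adjusted p = 0.00683) and Sigirr, a receptor that dampens these signals, fell by 1.89 (adjusted p = 0.00779), and without CML-TKI 1 it was 3 that were higher and 2 that were lower.

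Among the 3 receptor tyrosine kinases for growth factors, Csf1r and Kit moved in opposite directions. Csf1r, the receptor for M-CSF that marks monocytes and macrophages, had 2.86, 0.965, 3.67 and 1.51 CPM in CML 1, 2, 3 and 5, and 76.0, 391.1, 248.8 and 262.5 CPM in CML-TKI 1, 2, 3 and 4. Its log2 fold change was 6.75 (standard error 0.62, adjusted p = 5.49e-04 from edgeR). Kit, the receptor for stem cell factor and part of the sort gate, fell from 938.4 ± 119.5 to 248.5 ± 44.2 CPM (SD, n = 4 in each group; log2 fold change -1.92, adjusted p = 8.70e-04 from edgeR). Both held in all 8 fits without 1 library.

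Below the receptors, 1 gene fell and 0 rose in each of the lists of JAK kinases, STAT factors and inhibitors, beside 3.93% of all genes tested that fell and 6.29% that rose. Single genes are given for what they are, and nothing is read from these counts about the lists. Of 4 JAK kinases Jak3 fell (log2 fold change -1.09, adjusted p = 0.0328 from edgeR), while Jak1, Jak2 and Tyk2 had log2 fold changes of -0.28, -0.33 and 0.55 (adjusted p = 0.602, 0.562 and 0.227). The call of Jak3 held in 2 of the 8 fits without 1 library, those without CML-TKI 1 and CML-TKI 3. Of 7 STAT factors Stat5a fell (log2 fold change -1.49, adjusted p = 0.0108) and Stat3, the main factor below gp130, had a log2 fold change of 0.04 (adjusted p = 0.915). 0 of the JAK kinases and 0 of the STAT factors rose, at an unadjusted p under 0.05 in edgeR or by DESeq2 or limma-voom either.

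Of 19 inhibitors of cytokine signaling, Cish, a feedback inhibitor induced by STAT5, fell from 43.2 ± 7.14 to 7.58 ± 7.44 CPM (SD, n = 4 in each group; log2 fold change -2.46, adjusted p = 0.0262 from edgeR) and 0 rose, although 4 were higher and 3 lower at an unadjusted p under 0.05, 2 and 1 by DESeq2 and 3 and 3 by limma-voom. Without CML-TKI 1 it was 3 that were higher and 4 that were lower, and without any 1 of the other libraries 0. The call of Cish held without CML-TKI 1 only (log2 fold change -3.58), and over the 8 fits without 1 library its adjusted p reached 0.0725. Of 12 adaptors and kinases at the receptor, 2 kinases rose and 0 genes fell, with 3 higher and 1 lower at an unadjusted p under 0.05, 3 and 0 by DESeq2 and 3 and 1 by limma-voom. Without CML-TKI 1 it was 4 that were higher and 0 lower, without CML 5 it was 1 each way, and without any 1 of the other libraries 1 that was higher. These were Lyn, a kinase of the SRC family, by 1.26 and Fes by 2.22 on the log2 scale (adjusted p = 0.0435 and 0.00457 from edgeR), and the call of Lyn held without CML-TKI 1 only, with an adjusted p up to 0.117. Of 3 genes of IL-6 receptor shedding, the protease gene Adam17 and Rhbdf2, whose product escorts that protease, rose by 1.21 and 2.50 (adjusted p = 0.0211 and 0.00755 from edgeR), and Adam17 lost its call without any 1 of the CML libraries or CML-TKI 2 (adjusted p up to 0.0703). Of the 28 genes called in these lists, 16 were called in all 8 fits without 1 library. With CML 1, 2 and 3 summed to 1 library, 3 of the 28 were called (Csf1r, Kit and Irf8). All 28 kept their sign and an unadjusted p under 0.05 in edgeR. They were picked by their calls in the same libraries, so this is no separate support.

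**Figure D5:**
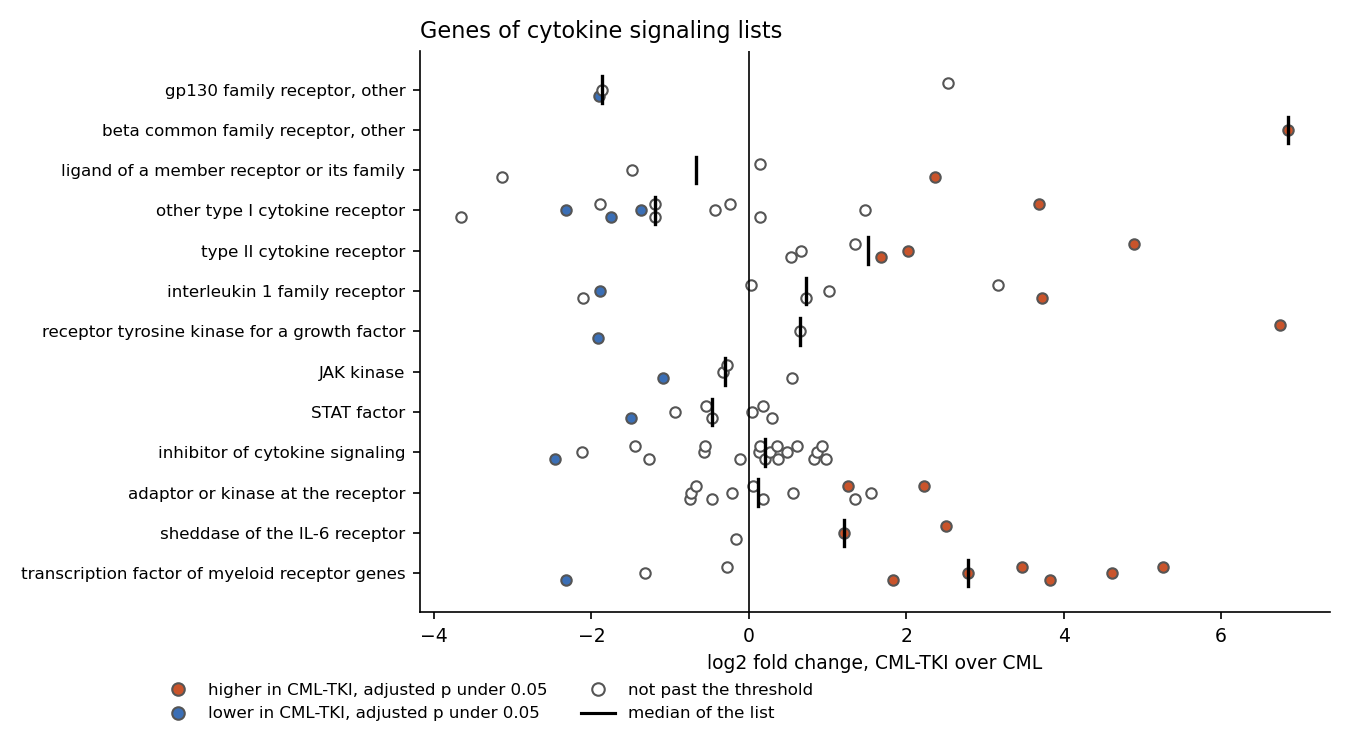
Log2 fold change, CML-TKI over CML, of each tested gene of the lists of other receptors, ligands, kinases, STAT factors, inhibitors and transcription factors, in red or blue where the adjusted p from edgeR was under 0.05 and open otherwise, with a black line at the median of the list. The median of the transcription factors is 2.79 and that of the other type I receptors -1.19, and the fitted value of Il5ra, the sole gene of its row, depends on the prior count since its CML libraries are under the floor.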

How the data were processed

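The libraries (4 CML, 4 CML-TKI) were made by the authors with Nextera XT. Per the methods and the submitters' notes, reads were aligned to mm10 with STAR 2.6.1d and quantified to RefSeq transcripts in Partek 8.0. The deposited values are estimated counts per gene without normalization. The fourth CML column bears the number 5, which no label holds, and went unnumbered into the CML group. Descriptions in the labels repeat column names (all CML-TKI samples carry that of CML-TKI 1, and the fourth CML sample that of CML 1), so columns were matched by the numbers in the titles, and which sample a column holds within its group is unsure.

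Counts were rounded. Genes were filtered with filterByExpr of edgeR 4.0.16 in R 4.3.3 (at least 10 counts in a library of median size, and 15 in all), scaled by TMM, and 11937 were tested by quasi-likelihood with robust dispersion estimates, taking a Benjamini-Hochberg adjusted p under 0.05 as called. CPM are TMM-normalized and log2 CPM use a prior count of 2. The script was tested on simulated data. DESeq2 1.42.0, limma-voom (limma 3.58.1), scaling, filters, a replicate block, summing CML 1 to 3 and each library left out were alternatives.

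The members and lists were chosen with earlier results of these data known. All members were named, in each list the called genes (at most 4 a direction, Cebpb and Spi1 added after their values were seen), and for each tested member the 3 genes of highest r. Cell type markers, Lif, and single genes not called were named beside the results they bear on, with values seen. Transcripts are of GENCODE M21, promoters and coordinates of RefSeq (GRCm38.p6). 1 further adaptor or kinase gene was left out of its list of 12 and is not reported here.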

Additional observations from a re-analysis of the deposited data

Results flagged for a closer look

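In groups of 4 libraries, the lowest or highest value was checked for a gap to the nearest library that was too large a part of the group's range by Dixon's 95% critical value. Chance gives about 1 in 20 groups, or 2.8 of the 56 checked, and 9 were found, many of which share genes or libraries.

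Of the receptor genes, Osmr stood out, with 17.1 CPM in CML-TKI 1 far above the other CML-TKI libraries. In that library the summed granulocyte markers, 1463 CPM, were far below, and the summed HSC markers, 446.5 CPM, far above those of its group, and it had the lowest Csf3r, Csf2ra, Csf2rb, Il6ra and Il6st of the CML-TKI libraries. CML-TKI 3 was far above its group in erythroid markers (50424 CPM) and B cell markers (249.9 CPM), and it had the highest Csf3r and Lifr. Among the CML libraries, CML 3 was highest in markers of basophils and mast cells (6.76 CPM), B cells (23.2 CPM) and dendritic cells (20.5 CPM), and CML 5 in those of T and NK cells (31.2 CPM). The part of these cell types in the receptor values was not tested.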

How the results depend on the processing

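The count of 5 receptor genes called, all higher, was 4 to 6 in the fits without 1 library and 5 or 6 with DESeq2, limma-voom, RLE factors, total counts with or without Rn45s, no filter, or a minimum count of 30. It was 0 with CML 1 to 3 summed and 0 without CML 3 and 5, as the report gives. The numbers that 3 CML and 3 CML-TKI libraries share are not stated to pair them. Deviations from the group means correlated with r of -0.042 to 0.097, and 1 of the 3 correlated best with its own number. With 3 pairs, and CML 1 to 3 so alike, this cannot show whether the numbers pair animals. With a replicate block on these 6 libraries 0 receptor genes passed edgeR's adjusted threshold (7 were higher at an unadjusted p under 0.05), and without the block, on the same 6, 2 did. Over all genes the calls were 165 with the block and 589 without it. DESeq2 called 2157 genes and limma-voom 2563 against 1220, summing CML 1 to 3 left 122, leaving out CML 3 and 5 left 97, and leaving out CML-TKI 1 and 3 gave 3263. Leaving out CML 1, 2, 3 or 5 in turn gave 505, 552, 570 and 808 calls over all genes. Without CML-TKI 1, 2, 3 or 4 it was 2504, 907, 1198 and 1022. None of the 8 receptor genes tested changed sign under any alternative, and Il3ra and Lifr were called in none. Osmr, tested in 9 alternatives, was higher in 8 and lower in 1 and called in none. The difference in the Lifr to Il6st ratio reversed to -0.27 without CML-TKI 3 and reached 1.56 without CML-TKI 2. The cause of these shifts was not tested. Total counts without Rn45s moved the median of all genes to -0.12. Floors were highest in CML-TKI 3.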
